A study of Mus musculus with 48 samples.

Results

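Transcripts of 10 genes that build the thin filament of the sarcomere and anchor it at the Z-disc were followed in the gastrocnemius muscle of 48 mice: the alpha-actins Acta1, Actc1 and Acta2, the tropomyosins Tpm1, Tpm2 and Tpm3, the alpha-actinins Actn2 and Actn3, nebulin (Neb) and the nebulin-related anchoring protein (Nrap). The genes were chosen by name from earlier results on these same libraries, in which the highest dose was compared with vehicle. Values of that contrast are therefore given as a description of these 10 genes, without p-values. All 10 were found once in a table of 54532 genes, and all 10 were among the 15583 genes with enough counts to test. The mice received perfluorooctane sulfonic acid (PFOS), a persistent fluorinated surfactant, by oral gavage for 21 days, and the study asked about mitochondrial metabolism in muscle. Doses were 0 (vehicle), 1 and 10 mg per kg body weight per day, given to 17, 16 and 15 mice. At each dose the mice fell into 4 strata, females and males of the hCYP2B6-Tg line and females and males of the Cyp2b-null line. hCYP2B6-Tg mice carry the human cytochrome gene CYP2B6, and Cyp2b-null mice lack the mouse Cyp2b genes. The labels used here do not say whether the hCYP2B6-Tg mice carry the Cyp2b deletion as well, which promoter drives the transgene, the background strain or the age. Each group held 4 mice, except that vehicle was given to 5 hCYP2B6-Tg males and the highest dose to 3 Cyp2b-null males, with 1 library per mouse.

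In striated muscle, actin monomers polymerise into thin filaments, tropomyosin lies along each filament and, with the troponins, controls where myosin may bind. Nebulin runs along the filament and stabilises it, and the alpha-actinins cross-link filaments of neighbouring sarcomeres at the Z-disc. Acta1 encodes the skeletal alpha-actin of adult muscle, Actc1 the cardiac alpha-actin that developing and regenerating skeletal muscle also uses, and Acta2 the alpha-actin of vascular smooth muscle. Actn3 is found in fast fibres and Actn2 in all fibres, while Tpm3 encodes the tropomyosin of slow fibres and Nrap a protein of myofibril assembly and of the myotendinous junction.

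The promoters of Acta1 and Actc1 are shown because both carry a CArG box, the site known for serum response factor (SRF), which in actin genes is a textbook feature. Sequences are from RefSeq (GRCm38.p6), which held an entry for 8 of the 10 genes, and run 5′ to 3′ toward the transcription start on the minus strand. The Acta1 stretch is chr8:123894776-123895025 and the Actc1 stretch chr2:114052888-114053125. For Actc1 the last 12 bases before the start are left out because another annotation places them in an exon. Capitals mark the CArG box.
Acta1: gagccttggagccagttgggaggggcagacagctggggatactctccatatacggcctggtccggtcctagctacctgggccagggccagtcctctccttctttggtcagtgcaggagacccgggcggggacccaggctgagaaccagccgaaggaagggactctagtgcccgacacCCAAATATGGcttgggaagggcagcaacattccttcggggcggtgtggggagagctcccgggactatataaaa
Actc1: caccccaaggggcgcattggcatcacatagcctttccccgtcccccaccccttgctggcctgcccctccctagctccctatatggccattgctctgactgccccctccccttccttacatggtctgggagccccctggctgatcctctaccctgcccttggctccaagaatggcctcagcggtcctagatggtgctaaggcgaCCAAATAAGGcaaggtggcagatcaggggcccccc
The CArG box was searched on both strands in the 250 bases before each start. It spanned bases -73 to -64 in Acta1 and -47 to -38 in Actc1, counted from the start, and was present in 2 of the 8 genes and in 1.47% of all 32851 promoters of the same length. A looser form with 1 G or C among its 6 central letters was present in 5 of the 8 genes (Acta1, Actc1, Acta2, Tpm3 and Nrap) and in 7.24% of all promoters. The E-box CANNTG, the motif known for myogenic factors, was present in 7 of the 8 genes, with Actc1 the exception, and in 66.2% of all promoters. The letters TATAAA were present in Acta1 alone of the 8 (12.4% of all promoters), and CATTCC, the motif known for TEAD factors, in Acta1, Acta2 and Tpm1 (12.6%). Of the 250 bases, 217 for Acta2, 193 for Tpm1, 106 for Tpm2 and 28 for Actn2 lie in exons of the other annotation. Matches there can fall in transcribed sequence. Positions are counted from the RefSeq start. The count table places the 5′ ends of Acta1 and Actc1 elsewhere, at bases 123894751 of chr8 and 114053548 of chr2. By those coordinates the Actc1 stretch shown lies inside the gene, while the Acta1 stretch lies upstream of its gene. A match describes letters in this window and is not a measured site.

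Libraries held 11571142 to 19921061 counts over genes, with a median of 14420691. Fast myosin transcripts identified the tissue as muscle: Myh4 averaged 44900 ± 10320 CPM (counts scaled to library size, as edgeR gives them) at 10 mg/kg/day and 67970 ± 8669 CPM at 0 mg/kg/day (SD, n = 15 and 17). The labels' extraction text names liver, whereas the summed CPM of 7 liver markers had medians of 0.582, 0.544 and 0.642 at 0, 1 and 10 mg/kg/day. In 6 libraries, transcripts of liver or lymph node stood apart from the others. Alb, the plasma protein albumin, stood out in replicate 2 of the Cyp2b-null males given 1 mg/kg/day. Glycam1, a glycoprotein of lymph node endothelium, stood out in replicate 4 of the vehicle hCYP2B6-Tg females and, at 10 mg/kg/day, in replicate 1 of the hCYP2B6-Tg females and replicate 3 of each of the other 3 strata. Library numbers rise with dose within each stratum, and the labels do not say what these numbers record. If they follow handling order, any effect of that order cannot be told apart from dose.

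Levels of the 10 genes were compared per kilobase of gene length, as CPM per kb, in mice given vehicle. Acta1 was highest at 23061 ± 3528, followed by Actn3 at 4829 ± 765, Tpm1 at 2765 ± 465.8 and Tpm2 at 1497 ± 398 CPM per kb (SD, n = 17). Actc1 came next at 479 ± 366, then Nrap at 340 ± 49.9, Neb at 288 ± 47.0 and Actn2 at 186 ± 99.9, with Tpm3 at 24.1 ± 30.9 and Acta2 at 17.4 ± 8.52 CPM per kb. From Actc1 to Actn2 the intervals of 1 SD around the means of neighbours in that order overlapped, as did those of Tpm3 and Acta2, while those of the other neighbours did not. The order depends on the length used. The table's gene length was 6485 bases for Tpm1 and 6085 for Tpm3, against 1824 and 2233 bases for the transcript with the longest coding sequence. For Actn3 the values were 2894 and 2887 bases. Without division by length, Tpm1 had more CPM than Actn3 in mice given vehicle. At 10 mg/kg/day the top 4 kept their order, with Acta1 at 11653 ± 4309, Actn3 at 6795 ± 1410, Tpm1 at 1380 ± 543 and Tpm2 at 950.0 ± 423 CPM per kb (SD, n = 15). Actc1 was then at 29.7 ± 29.0 CPM per kb, within the spread of Tpm3 at 35.9 ± 33.5 and Acta2 at 20.5 ± 8.50 CPM per kb.

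Averaged over the strata, 6 of the 10 genes were past an adjusted p of 0.05 in edgeR's quasi-likelihood test between 10 and 0 mg/kg/day, 2 higher (Actn3 and Nrap) and 4 lower (Acta1, Actc1, Tpm1 and Tpm2). Since this contrast chose the genes, the count, and those within strata given further on, describe the choice and are not independent evidence of a change. Over all genes tested, 47.5% were past the same threshold, 24.98% higher and 22.5% lower. The median log2 fold change was 0.03 over the 10 genes and 0.04 over all genes. Against 1 mg/kg/day the same 6 genes passed, where 46.9% of all genes did; both contrasts use the same libraries at 10 mg/kg/day. In whole muscle, fewer cells of a type and less RNA per cell cannot be told apart.

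Actc1 was 15.7-fold lower at 10 than at 0 mg/kg/day, a log2 fold change of -3.97 ± 0.43 (SE) and the largest fall among the 15583 genes in that fit. In hCYP2B6-Tg females, Actc1 had 2099, 1363, 1196 and 674 CPM at 0 mg/kg/day, 744, 848, 2805 and 545 CPM at 1 mg/kg/day, and 76.4, 41.2, 30.4 and 42.2 CPM at 10 mg/kg/day. In hCYP2B6-Tg males it had 241, 939, 213, 1181 and 199.4 CPM at 0 mg/kg/day, 545, 273, 477 and 256 CPM at 1 mg/kg/day, and 34.4, 22.8, 6.99 and 95.7 CPM at 10 mg/kg/day. All libraries at 10 mg/kg/day of these strata were below all vehicle libraries, and the libraries at 1 mg/kg/day lay among the vehicle libraries except for 1 above them and 1 below them in females. In Cyp2b-null females, Actc1 had 1711, 207, 1074 and 868 CPM at 0 mg/kg/day, 788, 784, 711 and 626 CPM at 1 mg/kg/day, and 11.8, 84.3, 11.4 and 186 CPM at 10 mg/kg/day. In Cyp2b-null males it had 320.0, 381, 318 and 195.4 CPM at 0 mg/kg/day, 181.5, 135.8, 1275 and 251 CPM at 1 mg/kg/day, and 18.6, 40.4 and 18.0 CPM at 10 mg/kg/day. In the Cyp2b-null strata, too, every library at 10 mg/kg/day was below every vehicle library, while at 1 mg/kg/day 2 males were below and 1 was above the vehicle males. Pooled over strata, Actc1 ranged from 6.99 to 186 CPM at 10 mg/kg/day and from 195.4 to 2099 CPM at 0 mg/kg/day, so the dose groups did not overlap; 1.01% of all genes had pooled groups without overlap. The 4 stratum log2 fold changes were -4.81 ± 0.85 in females and -3.80 ± 0.80 in males of the hCYP2B6-Tg line, and -3.72 ± 0.81 in females and -3.56 ± 0.91 in males of the Cyp2b-null line (SE).

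Acta1 was 2.00-fold lower at 10 than at 0 mg/kg/day, with a log2 fold change of -1.002 ± 0.11 (SE). In hCYP2B6-Tg females, Acta1 had 19232, 14817, 14665 and 16730.1 CPM at 10 mg/kg/day and 43142, 36527, 39424 and 37568 CPM at 0 mg/kg/day. In hCYP2B6-Tg males it had 19572, 19975, 13184 and 36902 CPM at 10 mg/kg/day and 30136, 35768, 32798, 39133 and 29397 CPM at 0 mg/kg/day. Only the males' groups overlapped of these strata, through replicate 4 at 10 mg/kg/day. In Cyp2b-null females, Acta1 had 11731, 16842, 8981 and 25932 CPM at 10 mg/kg/day and 40183, 30972, 45625 and 40646 CPM at 0 mg/kg/day. In Cyp2b-null males it had 18185, 17901 and 13831 CPM at 10 mg/kg/day and 33459, 28932, 27352 and 31114 CPM at 0 mg/kg/day. Neither Cyp2b-null stratum had overlapping groups, and 14 of the 15 libraries at 10 mg/kg/day lay below all 17 vehicle libraries.

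Acta2, the smooth muscle actin, was spread widely within groups, and its dose groups overlapped in every stratum. It averaged 30.9 ± 15.2, 30.02 ± 9.77 and 36.5 ± 15.1 CPM at 0, 1 and 10 mg/kg/day (SD, n = 17, 16 and 15). The log2 fold change between 10 and 0 mg/kg/day was 0.16 ± 0.20 (SE). In hCYP2B6-Tg males it had 17.1, 55.9, 63.6 and 43.0 CPM at 10 mg/kg/day, against 18.8, 17.5, 19.6, 14.4 and 43.3 CPM at 0 mg/kg/day. Among 11 other smooth muscle markers, 3 rose and 1 fell between 10 and 0 mg/kg/day, where 47.5% of all genes passed, and their summed level ranged from 3972 to 5921 CPM at 10 mg/kg/day and from 3815 to 4965 CPM at 0 mg/kg/day. Those that passed were Des (desmin, also of striated muscle; 0.37 ± 0.05), Mylk (myosin light chain kinase; 0.39 ± 0.13) and Myh11 (smooth muscle myosin; 0.47 ± 0.18), which rose, and Smtn (smoothelin; -0.82 ± 0.08), which fell (log2 fold change ± SE; edgeR adjusted p 1.15e-07, 0.0113, 0.0273 and 2.97e-11). Most of the summed level of the smooth muscle markers came from Des and Synpo2, which are also in the list of Z-disc genes used below. Des averaged 4112 ± 479 CPM at 10 mg/kg/day and 3217 ± 324.5 CPM at 0 mg/kg/day (SD). Synpo2 averaged 721.6 ± 141.8 and 808.8 ± 51.57 CPM at these doses (SD). The sum is therefore no measure of smooth muscle content. Of 7 pericyte markers, 1 fell and 0 rose.

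**Figure D1:**
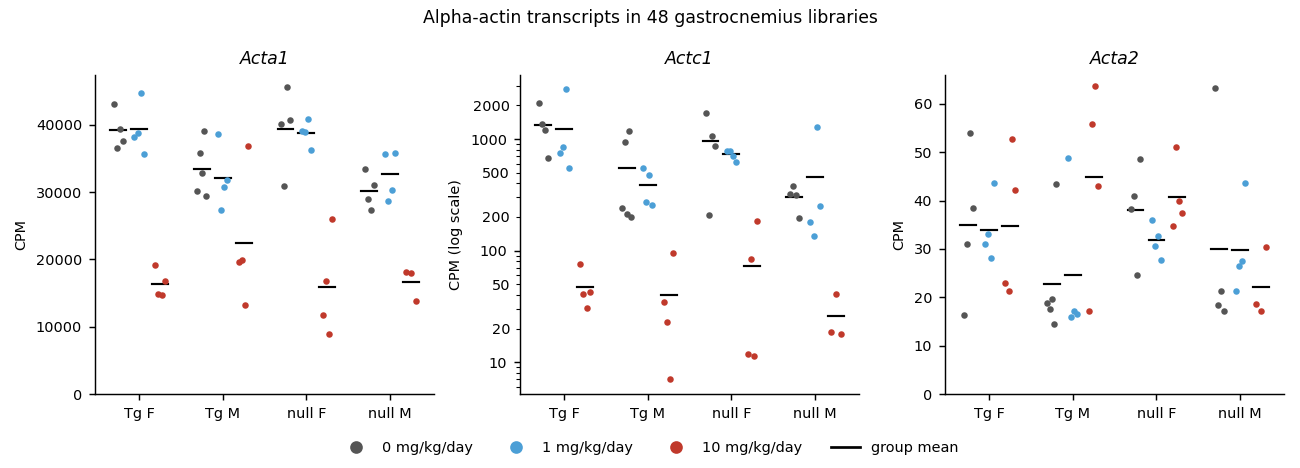
CPM of the 3 alpha-actin genes in each library (points) with group means (lines), for hCYP2B6-Tg (Tg) and Cyp2b-null (null) females (F) and males (M) at each dose; the Actc1 axis is a log scale. Actc1 at 10 mg/kg/day ranged from 6.99 to 186 CPM, below all vehicle libraries, Acta1 at 10 mg/kg/day was above its vehicle group's lowest library only in 1 hCYP2B6-Tg male, and Acta2 overlapped in every stratum.

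Tpm1, the main tropomyosin of these muscles, was 1.99-fold lower at 10 than at 0 mg/kg/day (log2 fold change -0.996 ± 0.13, SE). It had 10267, 6854, 4789 and 8102 CPM at 10 mg/kg/day and 18935, 17106, 17536 and 14907 CPM at 0 mg/kg/day in hCYP2B6-Tg females. In hCYP2B6-Tg males it had 12866, 6055, 6394 and 13657 CPM at 10 mg/kg/day and 18071, 20935, 19069, 25424 and 14239 CPM at 0 mg/kg/day. Neither hCYP2B6-Tg stratum overlapped. In Cyp2b-null females, Tpm1 had 5014, 11657, 4880.05 and 15933 CPM at 10 mg/kg/day and 18026, 15325, 21046 and 15326 CPM at 0 mg/kg/day. In Cyp2b-null males it had 10791, 10051 and 6955 CPM at 10 mg/kg/day and 15551, 18806, 13780 and 20745 CPM at 0 mg/kg/day. The females' groups overlapped through replicate 4 at 10 mg/kg/day alone.

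Tpm2, the beta-tropomyosin, averaged 2764 ± 1231 CPM at 10 mg/kg/day and 4356 ± 1159 CPM at 0 mg/kg/day (SD, n = 15 and 17), a log2 fold change of -0.73 ± 0.14 (SE). Its groups were apart only in the Cyp2b-null strata. There it had 2550, 1500.1, 1636 and 2337 CPM at 10 mg/kg/day and 3914, 6404, 5497 and 5116 CPM at 0 mg/kg/day in females, and 1953, 2470, 1656 CPM at 10 mg/kg/day and 4310, 2787, 5788 and 2828 CPM at 0 mg/kg/day in males. In hCYP2B6-Tg mice the stratum log2 fold changes were -0.52 ± 0.28 in females and -0.05 ± 0.27 in males (SE), and the groups overlapped.

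Tpm3, the slow tropomyosin, varied more within groups than any of the other 9 genes: its within-group SD was 1.36 on the log2 scale, against 0.19 for Neb at the other end. It ranged from 32.3 through a median of 134.4 to 680.3 CPM at 10 mg/kg/day and from 12.3 through a median of 70.8 to 779 CPM at 0 mg/kg/day. The averaged log2 fold change was 0.57 ± 0.43 (SE), and the strata lay on both sides of 0, from 2.78 ± 0.84 in hCYP2B6-Tg males to -2.07 ± 0.98 in Cyp2b-null males. In the hCYP2B6-Tg males Tpm3 had 32.3, 680.3, 119.3 and 574 CPM at 10 mg/kg/day and 50.4, 16.01, 52.4, 12.3 and 124 CPM at 0 mg/kg/day, with overlap. Slow fibre markers varied in the same way: the summed level of 8 of them ranged from 199.7 to 6243 CPM at 10 mg/kg/day and from 44.4 to 6607 CPM at 0 mg/kg/day, and averaged over strata 0 of the 8 passed edgeR's test between those doses or had an unadjusted p under 0.05. Over all genes, 47.5% passed in that averaged contrast. Of the 8 markers, 2 rose and 0 fell in hCYP2B6-Tg males, where 7.92% of all genes were higher and 10.6% lower. Their median log2 fold change there was 2.80. For Cyp2b-null males 0 of the 8 passed, against 15.8% of all genes, and the median was -2.18. Whether these counts of 8 markers differ from the shares over all genes was not tested. The part of slow fibre content in the Tpm3 differences was not tested. Of windows of 100 bases of the Tpm3 transcript, 45.7% were shared exactly with the gene Tpm3-rs7, which held 5482 counts over all libraries, against 115870 for Tpm3.

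Actn3, the fast-fibre alpha-actinin, was higher at 10 mg/kg/day, with 19666 ± 4080 CPM against 13976 ± 2214 CPM at 0 mg/kg/day (SD, n = 15 and 17; log2 fold change 0.51 ± 0.09, SE). In hCYP2B6-Tg females it had 21876, 18460.0, 19519 and 21727 CPM at 10 mg/kg/day and 14528, 13071, 12937 and 13333 CPM at 0 mg/kg/day. In Cyp2b-null males it had 24981, 22267 and 20581 CPM at 10 mg/kg/day and 11574, 14248, 10041 and 15154 CPM at 0 mg/kg/day. These groups were apart, while those of hCYP2B6-Tg males and those of Cyp2b-null females overlapped. Actn2, the alpha-actinin of all fibres, averaged 876 ± 356 CPM at 10 mg/kg/day and 706 ± 379 CPM at 0 mg/kg/day, a log2 fold change of 0.24 ± 0.25 (SE) that did not pass the threshold.

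Neb, which encodes the giant filament-stabilising protein, averaged 7016 ± 1308 CPM at 10 mg/kg/day and 7654 ± 1251 CPM at 0 mg/kg/day (SD, n = 15 and 17), with a log2 fold change of -0.10 ± 0.07 (SE), and did not pass. Its sign depended on the scaling: it was 0.11 on library totals without scaling factors, where the median of all genes was 0.25. In hCYP2B6-Tg males alone Neb passed, at -0.42 ± 0.13 (SE). Its level there was 7835, 5504, 5927 and 5723 CPM at 10 mg/kg/day and 9919, 8159, 9552, 7218 and 6836 CPM at 0 mg/kg/day, with overlap.

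Nrap was 1.89-fold higher at 10 than at 0 mg/kg/day (log2 fold change 0.92 ± 0.10, SE). It had 3572, 5024, 3838 and 3278 CPM at 10 mg/kg/day and 1829, 1914, 2195 and 2276 CPM at 0 mg/kg/day in hCYP2B6-Tg females. In hCYP2B6-Tg males it had 2701, 4059, 4993 and 2433 CPM at 10 mg/kg/day and 1956, 1523, 1911, 1408 and 2014 CPM at 0 mg/kg/day. Every treated hCYP2B6-Tg mouse was thus above every vehicle mouse of its stratum. In Cyp2b-null females, Nrap had 4413, 2283, 3310.0 and 1741 CPM at 10 mg/kg/day and 1485, 1675, 1809 and 2196 CPM at 0 mg/kg/day. In Cyp2b-null males it had 3822, 3675 and 4154 CPM at 10 mg/kg/day and 1971, 1559, 2274 and 1817 CPM at 0 mg/kg/day. Replicate 4 of the Cyp2b-null females was the lowest at 10 mg/kg/day for Nrap and overlapped with vehicle. Nrap overlaps Habp2 on the other strand; the genes overlapping it held 4282 counts over all libraries, against 1722070 for Nrap.

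Among the mice at 10 mg/kg/day, the extremes of several genes fell in the same animals. Cyp2b-null female replicate 4 had the highest Actc1 (186 CPM), the highest Tpm1 (15933 CPM) and the lowest Nrap (1741 CPM) of the 15 mice at that dose. The hCYP2B6-Tg male replicate 4 had the highest Acta1 (36902 CPM) and the second-highest Actc1 (95.7 CPM), with 2433 CPM of Nrap. Cyp2b-null female replicate 3 had the lowest Acta1 (8981 CPM), with 11.4 CPM of Actc1. This library was among the 6 named above and had the largest scaling factor of all libraries, 1.33, which lowers its CPM. The lowest factors at 10 mg/kg/day were 0.995 in Cyp2b-null female replicate 4 and 1.001 in hCYP2B6-Tg male replicate 4. The part of library scaling in these extremes was not tested.

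**Figure D2:**
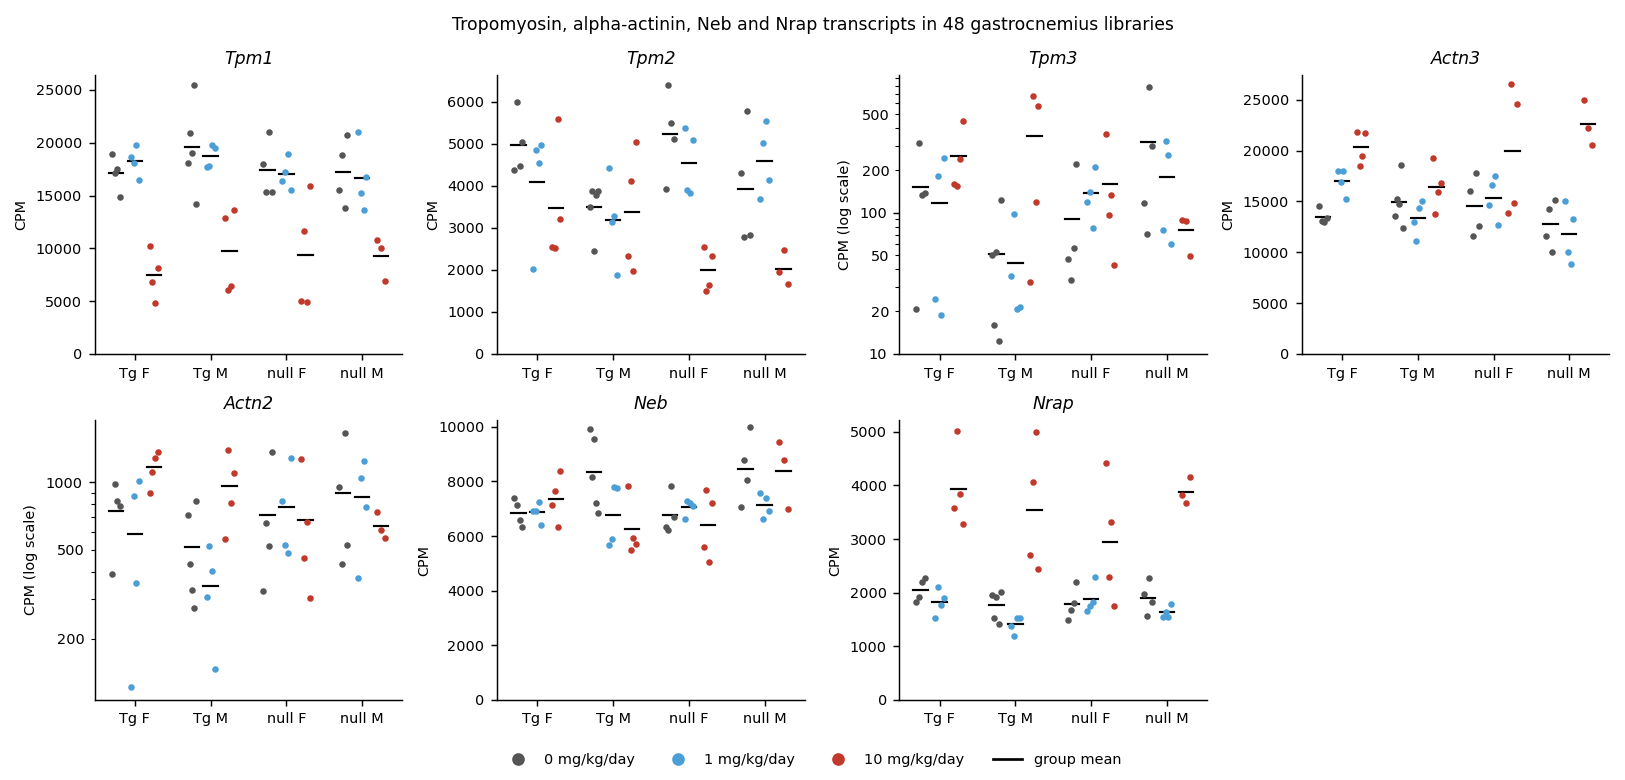
CPM of the tropomyosin, alpha-actinin, Neb and Nrap genes in each library (points) with group means (lines) by dose for hCYP2B6-Tg (Tg) and Cyp2b-null (null) females (F) and males (M); the Tpm3 and Actn2 axes are log scales. Nrap and Actn3 averaged 3553 and 19666 CPM at 10 mg/kg/day, against 1871 and 13976 CPM at 0 mg/kg/day, and Tpm1 averaged 8951 CPM at 10 mg/kg/day, against 17931 CPM at 0 mg/kg/day.

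Within strata, 5 of the 10 genes passed in hCYP2B6-Tg females, where 27.7% of all genes did, and 6 in hCYP2B6-Tg males, where 18.5% did. In Cyp2b-null females 5 passed (12.7% of all genes) and in Cyp2b-null males 6 passed (15.8% of all genes). Acta1, Actc1 and Tpm1 (lower) and Nrap (higher) were among them in all 4 strata, which split the contrast that chose the genes. Counts rested partly on single libraries: without replicate 2 of the treated hCYP2B6-Tg males 3 genes passed there, and without replicate 3 of the treated Cyp2b-null males 3 passed there. With the adipocyte markers in the fit, 2 passed in hCYP2B6-Tg males, 5 in hCYP2B6-Tg females, 4 in Cyp2b-null females and 6 in Cyp2b-null males. In Cyp2b-null females 3 passed without the 6 libraries named above, and 1 in a fit of the compared groups alone. Calls over all genes in these refits are not given here. A smaller count of the 10 genes therefore cannot be told apart from fewer calls over all genes. Groups at 10 and 0 mg/kg/day did not overlap for 5 of the 10 genes in hCYP2B6-Tg females (23.2% of all genes), 3 in hCYP2B6-Tg males (13% of all genes), 3 in Cyp2b-null females (14.3%) and 6 in Cyp2b-null males (28.2%).

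The contrast of 1 against 0 mg/kg/day was not used to choose the genes and could be tested. None of the 10 genes passed at 1 mg/kg/day: averaged over strata, edgeR called 0 of the 10, and 0 of them had an unadjusted p under 0.05. Over all genes, 0% passed and 577 had an unadjusted p under 0.05, while DESeq2 called 1 gene and limma voom 0. The log2 fold changes at 1 mg/kg/day were 0.01 ± 0.10 for Acta1, -0.11 ± 0.36 for Actc1, -0.01 ± 0.13 for Tpm1, -0.10 ± 0.14 for Tpm2 and -0.16 ± 0.10 for Nrap (SE; edgeR adjusted p 1 for each). Those of Acta2, Tpm3, Actn2, Actn3 and Neb lay between -0.21 and 0.04. With its larger standard error, Actc1 needed a larger change at this dose than Acta1 to be detectable. Within the strata, 0 of the 10 genes passed edgeR's test at 1 mg/kg/day, against 0% of all genes in hCYP2B6-Tg females, 0.0128% in hCYP2B6-Tg males and 0% in both Cyp2b-null strata; 327 to 766 of all genes per stratum had an unadjusted p under 0.05, DESeq2 called 2 to 10 per stratum, and limma voom called 46 in hCYP2B6-Tg females and 0 in the other strata. In hCYP2B6-Tg males 1 of the 10, Neb, had an unadjusted p under 0.05 (log2 fold change -0.30 ± 0.13, SE; edgeR adjusted p = 0.979), and in the other 3 strata 0 did. Actn3 in hCYP2B6-Tg females was the 1 gene without overlap there, with 17989, 16878, 18032 and 15226 CPM at 1 mg/kg/day and 14528, 13071, 12937 and 13333 CPM at 0 mg/kg/day, and 3.34% of all genes were without overlap in that stratum. Its log2 fold change was 0.34 ± 0.17 (SE; edgeR adjusted p = 1).

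**Figure D3:**
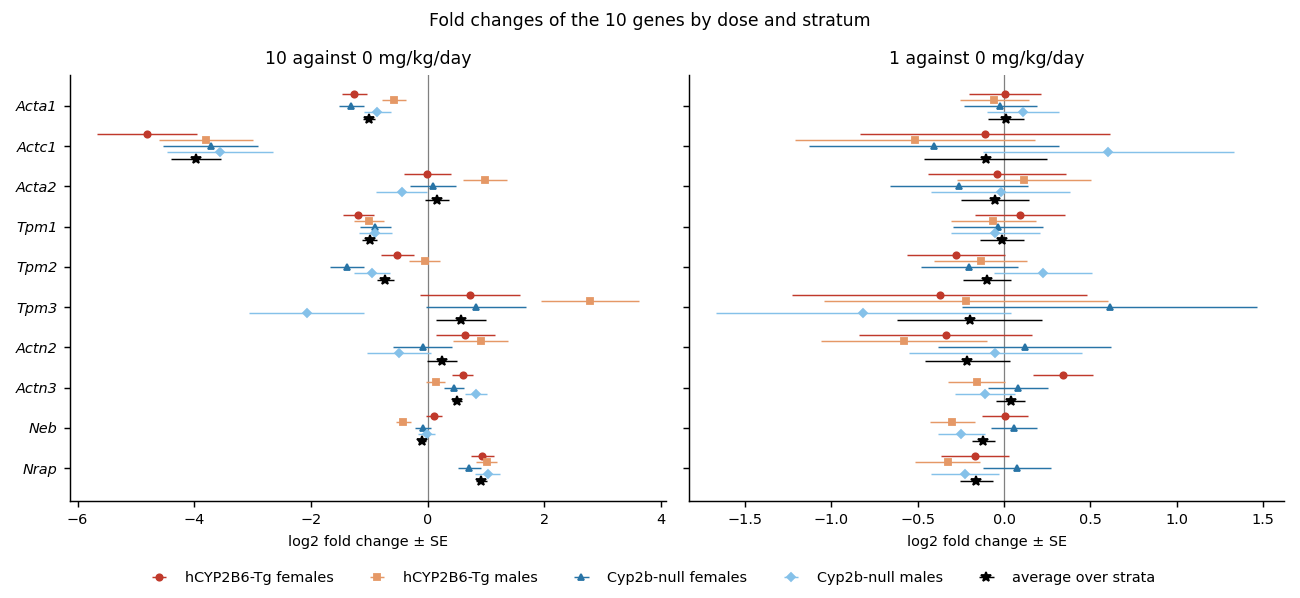
Log2 fold changes with standard errors from the edgeR fit for each of the 10 genes, at 10 against 0 mg/kg/day (left) and 1 against 0 mg/kg/day (right), in each of the 4 strata (coloured markers) and averaged over them (black stars). At 10 mg/kg/day the Actc1 strata lie between -4.81 and -3.56, while at 1 mg/kg/day the 10 averages lie between -0.21 and 0.04.

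Whether the effect of 10 mg/kg/day differed between strata was tested with interaction terms. Between the sexes, edgeR called 0 of the 10 genes and 0.128% of all genes (20 genes, with 1490 at an unadjusted p under 0.05; DESeq2 called 72 and limma voom 187). Acta1 was the 1 gene of the 10 with an unadjusted p under 0.05: the difference, females minus males, was -0.57 ± 0.21 on the log2 scale (SE; edgeR adjusted p = 0.339). In limma voom with sample quality weights it passed, at -0.74 with an adjusted p of 0.0283, and over all other settings and libraries left out the adjusted p was 0.083 to 0.559. The Actc1 difference between the sexes was -0.58 ± 0.74 (SE; edgeR adjusted p = 0.902). Between the genotypes, edgeR called 0 of the 10 genes and 0% of all genes (1378 at an unadjusted p under 0.05; DESeq2 called 4 and limma voom 0). Tpm2, Tpm3 and Actn2 had an unadjusted p under 0.05, with differences, hCYP2B6-Tg minus Cyp2b-null, of 0.88 ± 0.29 for Tpm2, 2.38 ± 0.87 for Tpm3 and 1.06 ± 0.51 for Actn2 (SE; edgeR adjusted p 0.414, 0.459 and 0.552). For Actc1 that difference was -0.66 ± 0.74 (SE; edgeR adjusted p = 0.826).

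In vehicle mice, genotype and sex were compared without PFOS. Between hCYP2B6-Tg and Cyp2b-null mice edgeR called 0 of the 10 genes and 0% of all genes (0 of the 10 and 535 of all genes at an unadjusted p under 0.05; DESeq2 called 9 and limma voom 5). The Actc1 difference was 0.67 ± 0.50 and that of Tpm3 -0.94 ± 0.59 (log2, SE; edgeR adjusted p 1). Between females and males, 1 of the 10 genes and 7.59% of all genes passed (DESeq2 called 1357 genes and limma voom 2796, against 1182 in edgeR). Neb was lower in females, with 6819 ± 579 CPM against 8397 ± 1232 CPM in males (SD, n = 8 and 9; log2 fold change -0.30 ± 0.09, SE; edgeR adjusted p = 0.0396). That call was lost without the filter on low counts (adjusted p = 0.109), without the 6 libraries named above (adjusted p = 0.0821) and when any of 9 single vehicle libraries was left out (adjusted p 0.0616 to 0.119). Those 9 were replicates 3 and 4 of hCYP2B6-Tg females, 1 and 3 of hCYP2B6-Tg males, 1, 2 and 4 of Cyp2b-null females, and 2 and 4 of Cyp2b-null males. Actc1 averaged 1149 ± 593 CPM in females and 443 ± 360.4 CPM in males (SD; log2 fold change 1.47 ± 0.51, SE; edgeR adjusted p = 0.0677), a difference that passed without hCYP2B6-Tg male replicate 4 (1.71; adjusted p = 0.0325), without Cyp2b-null female replicate 2 (1.64; adjusted p = 0.0427) and without the 6 libraries (1.59; adjusted p = 0.0339). Acta1 averaged 39261 ± 4430 CPM in females and 32010.0 ± 3706 CPM in males (edgeR adjusted p = 0.214). For Acta2 the female minus male difference was 0.48 ± 0.28 (SE; edgeR adjusted p = 0.332), and it passed at 0.81 without Cyp2b-null male replicate 1 (adjusted p = 0.0497).

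Within each family, the balance of the members was expressed as a share of their summed CPM per kb in each library. The tropomyosin shares therefore depend on the gene lengths used for Tpm1 and Tpm3, which exceed those of their transcripts. Actc1 made up a median of 1.68%, 1.53% and 0.197% of Acta1 and Actc1 together at 0, 1 and 10 mg/kg/day, with ranges of 0.593% to 4.42%, 0.449% to 5.61% and 0.0503% to 0.676%. The Acta2 share of the 3 alpha-actins had medians of 0.0663%, 0.0684% and 0.189%. Among the tropomyosins, the median Tpm1 share was 63.4%, 65.3% and 58.6%, that of Tpm2 36.1%, 34.6% and 40.3%, and that of Tpm3 0.301%, 0.361% and 1.17%. The Actn2 share of both alpha-actinins had medians of 3.85%, 2.88% and 3.32%. These shares at 10 mg/kg/day follow from the contrast that chose the genes and are not tested. Between 1 and 0 mg/kg/day none of the 6 shares differed in a two-sided permutation test with 100000 resamples (p 0.553 to 0.665; adjusted over the 6 shares, 0.665 each).

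**Figure D4:**
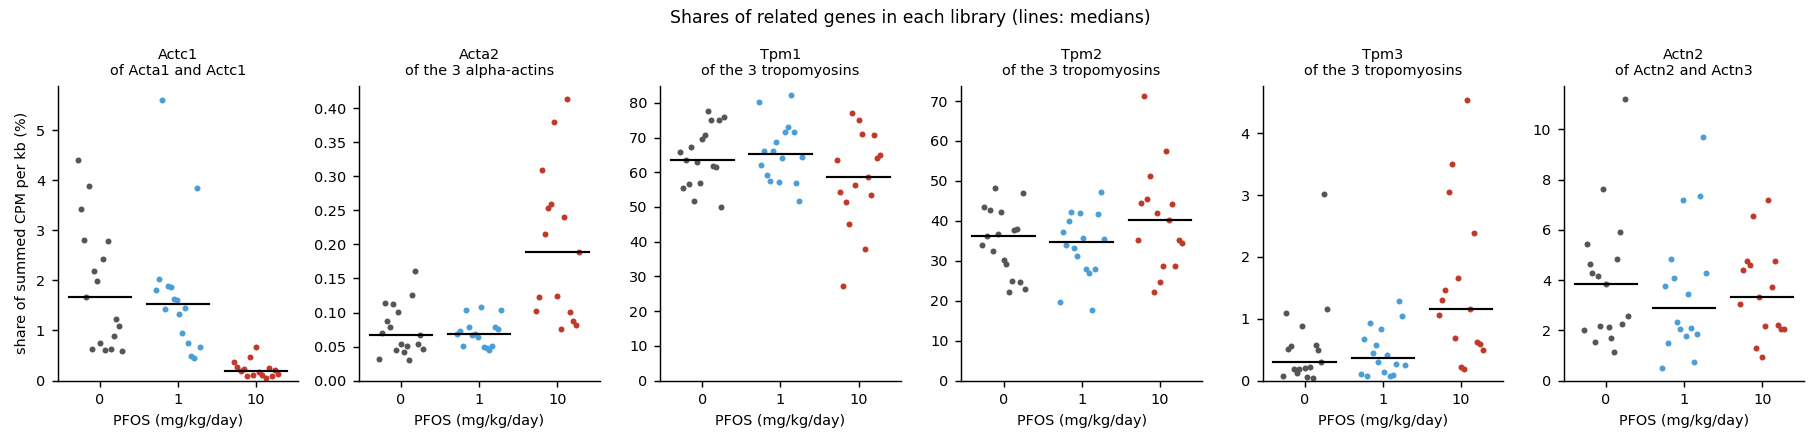
Share of each gene in the summed CPM per kb of its family (%), 1 point per library by PFOS dose, with lines at the medians. The Actc1 share had a median of 0.197% at 10 mg/kg/day, against 1.68% at 0 mg/kg/day, and all 6 shares overlap between these doses.

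Covariation was measured on deviations of log2 CPM from the group mean, which removes the dose effect on means, over 48 libraries and 45 pairs of the 10 genes. In 26 pairs, 13 positive and 13 negative, Pearson's r passed an adjusted p of 0.05 by permutation within groups, and 30 passed for Spearman's rho. At 0 and 1 mg/kg/day alone, 18 of the 45 passed in 33 libraries. All pairs share the scaling of their libraries; with unscaled totals 22 passed. Tpm1 and Actn3 rose and fell together, with r = 0.80 (permutation p = 1e-05, adjusted 9e-05) and rho = 0.86 (permutation p = 1e-05, adjusted 0.000112); r was 0.78 without the 2 farthest libraries and 0.90 at the lower doses. For Acta1 and Tpm1, r was 0.80 (permutation p = 1e-05, adjusted 9e-05), rho 0.76 (permutation p = 1e-05, adjusted 0.000112), 0.73 without the 2 farthest and 0.62 at the lower doses. The smallest p that 100000 permutations can give is 1e-05. Both contractile actins varied together: for Acta1 and Actc1, r was 0.76 (permutation p = 2e-05, adjusted 0.000129), rho 0.69 (permutation p = 4e-05, adjusted 0.000257), 0.70 without the 2 farthest and 0.57 at the lower doses (adjusted p = 0.0186). A second set, Tpm3 and Actn2, had r = 0.78 (permutation p = 1e-05, adjusted 9e-05) and rho = 0.78 (permutation p = 1e-05, adjusted 0.000112), with 0.78 without the 2 farthest and 0.77 at the lower doses. The alpha-actinins ran against each other, with r = -0.72 (permutation p = 1e-05, adjusted 9e-05) and rho = -0.76 (permutation p = 1e-05, adjusted 0.000112), -0.77 without the 2 farthest and -0.75 at the lower doses. Nrap ran against Tpm1, with r = -0.76 (permutation p = 0.00033, adjusted 0.00149) and rho = -0.70 (permutation p = 8e-05, adjusted 0.00036), -0.71 without the 2 farthest and -0.51 at the lower doses. Its relations to Acta1 and Actc1 (r = -0.65 for both; permutation p = 0.00532 and 0.00028, adjusted 0.0126 and 0.0014; rho = -0.47 and -0.57, permutation p = 0.00919 and 0.001, adjusted 0.0188 and 0.00284; r = -0.50 and -0.62 without the 2 farthest) did not pass at the lower doses alone (r = -0.18 and -0.37; adjusted p = 0.458 and 0.101).

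The same deviations were set against the mean log2 CPM of 4 marker lists, 40 relations in all, of which 14 passed, and 7 at the lower doses alone. Tpm3 followed the slow fibre markers, with r = 0.94 (permutation p = 1e-05, adjusted 0.000133) and rho = 0.97 (permutation p = 1e-05, adjusted 0.000133), 0.94 without the 2 farthest and 0.95 at the lower doses. Actn2 followed them with r = 0.78 and rho = 0.79 (permutation p = 1e-05, adjusted 0.000133 for both), 0.74 without the 2 farthest. Acta2 followed the smooth muscle markers, with r = 0.87 and rho = 0.82 (permutation p = 1e-05, adjusted 0.000133 for both), 0.84 without the 2 farthest and 0.83 at the lower doses. Tpm1 ran against the adipocyte markers, with r = -0.65 (permutation p = 5e-05, adjusted 0.0004) and rho = -0.62 (permutation p = 0.00021, adjusted 0.00137), -0.61 without the 2 farthest, and did not pass at the lower doses alone (r = -0.46; adjusted p = 0.0628). Actc1 followed the fast fibre markers, with r = 0.61 (permutation p = 0.00161, adjusted 0.00805) and rho = 0.51 (permutation p = 0.00271, adjusted 0.0136), 0.56 without the 2 farthest, and did not pass at the lower doses alone (r = 0.21; adjusted p = 0.457).

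**Figure D5:**
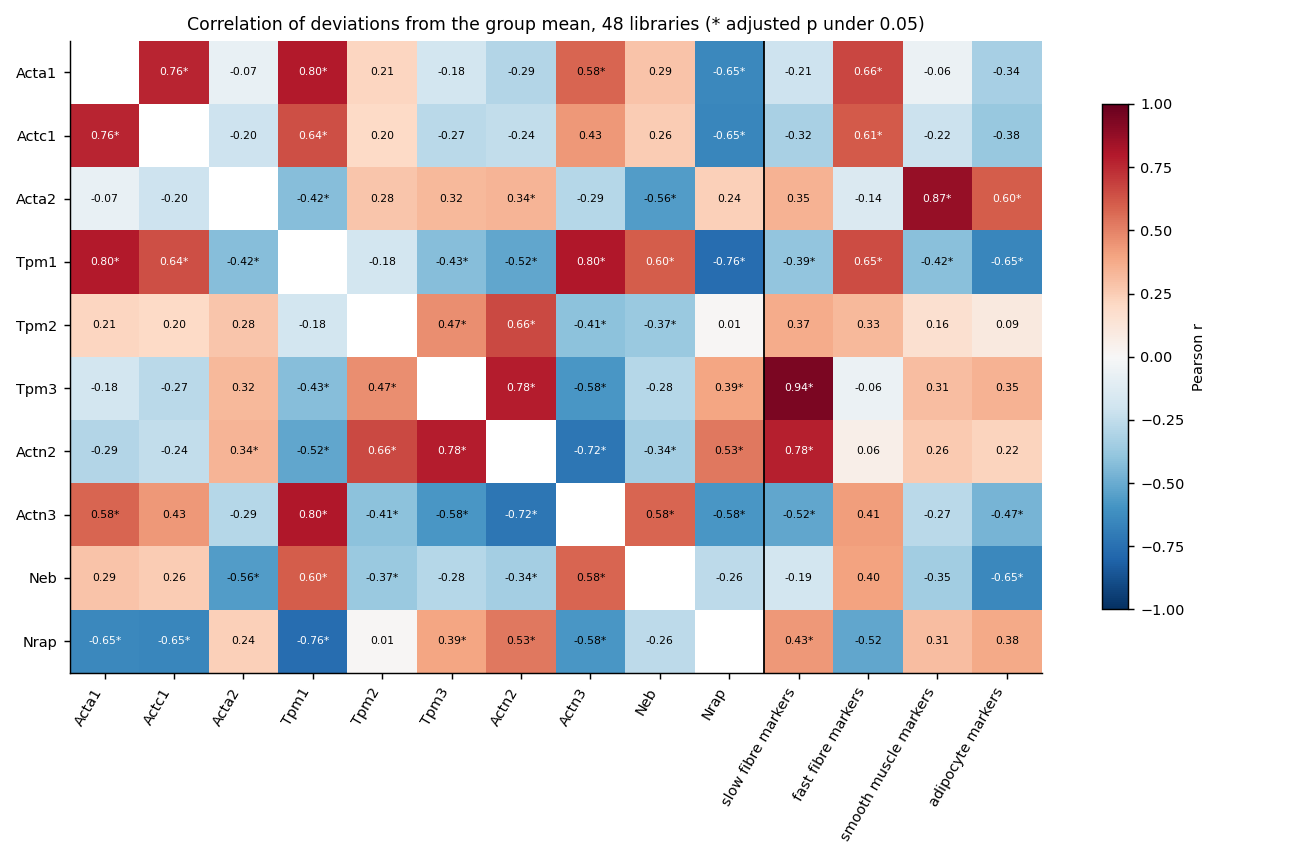
Pearson's r of deviations from the group mean of log2 CPM over 48 libraries, between the 10 genes (left of the line) and against the mean of 4 marker lists (right of it); asterisks mark an adjusted permutation p under 0.05. Tpm1 with Actn3 and Acta1 with Tpm1 stand at 0.80, Actn2 with Actn3 at -0.72, and Tpm3 with the slow fibre markers at 0.94.

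By the same measure, the genes outside the 10 with patterns most like theirs were ranked among 10731 candidates over 48 libraries. For Actc1 they were Casr (r = 0.90), Pgk1 (0.88), Tmem143 (0.83), Ccng1 (0.83) and Fam213b (0.81). At 10 against 0 mg/kg/day the log2 fold changes of these genes were -0.39 ± 0.27 for Casr, -0.82 ± 0.11 for Pgk1, -0.68 ± 0.06 for Tmem143, -0.75 ± 0.10 for Ccng1 and -1.04 ± 0.13 for Fam213b (SE). All were smaller than the -3.97 of Actc1. For Acta1 they were Pdlim7 (0.87), Sh3bgr (0.85) and Neurl1a (0.84), for Acta2 Myh11 (0.92), Csrp1 (0.90) and Flna (0.85), and for Nrap Pm20d2 (0.79), Flnc (0.77) and Canx (0.77).

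Genes that act with the 10 were read from lists chosen with earlier results on these libraries known. Within each list the named genes were mostly those with the smallest p at 10 against 0 mg/kg/day. Their adjusted p-values, like those of the marker lists above and below, describe that choice and are not independent evidence of a change. Of 4 other actins and tropomyosins, 2 fell and 0 rose at 10 mg/kg/day, where 47.5% of all genes passed (median log2 fold change -0.18, against 0.04 over all genes). Cytoplasmic gamma-actin, Actg1, fell to 75.5 ± 18.4 CPM at 10 mg/kg/day, against 136.2 ± 27.2 CPM at 0 mg/kg/day (SD, n = 15 and 17; log2 fold change -0.89 ± 0.08, SE; edgeR adjusted p = 3.85e-11). Tpm4, a non-muscle tropomyosin, fell by less (-0.29 ± 0.07; edgeR adjusted p = 0.00134), and cytoplasmic beta-actin, Actb, did not pass (213 ± 61.6 CPM at 10 mg/kg/day and 217 ± 32.96 CPM at 0 mg/kg/day; edgeR adjusted p = 0.598).

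Of 21 genes for thin filament length and actin turnover, 10 fell and 1 rose (median -0.13), against 22.5% of all genes lower and 24.98% higher. Kbtbd13, a Kelch protein of the ubiquitin system linked to nemaline myopathy, fell to 11.04 ± 3.41 CPM at 10 mg/kg/day, against 22.1 ± 2.10 CPM at 0 mg/kg/day (log2 fold change -1.03 ± 0.11, SE; edgeR adjusted p = 5.12e-10). Fhod3, a formin, Lmod3, which caps and nucleates filaments at the pointed end, and Capzb, a subunit of the barbed-end capping protein, fell with log2 fold changes of -0.58 ± 0.08, -0.56 ± 0.08 and -0.51 ± 0.07 (SE; edgeR adjusted p 4.64e-08, 8.86e-08 and 2.98e-07). Of 26 Z-disc and junction genes, 9 rose and 9 fell (median 0.07), against 24.98% and 22.5% of all genes. Those with the smallest p were Pdlim7, Myoz3 and Ldb3, Z-disc adaptor proteins, which fell by 0.92 ± 0.11, 1.45 ± 0.18 and 0.52 ± 0.07 on the log2 scale, and desmin, which rose as given above (SE; edgeR adjusted p 6.17e-09, 1.00e-08 and 4.12e-08). Myoz3 had 27.5 ± 16.2 CPM at 10 mg/kg/day and 74.0 ± 8.77 CPM at 0 mg/kg/day (SD).

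Of 9 names listed for SRF, its actin-sensing cofactors and the Mef2 factors, 7 were in the table, among them Mef2a, Mef2c and Mef2d. Of the 7, 3 fell, including Mef2c, and 1 rose, where 47.5% of all genes passed in either direction. Mkl1, which encodes a cofactor that binds actin monomers, fell to 19.7 ± 13.03 CPM at 10 mg/kg/day, against 39.6 ± 8.61 CPM at 0 mg/kg/day (log2 fold change -1.24 ± 0.13, SE; edgeR adjusted p = 7.89e-10). Mef2c, a muscle transcription factor, and Srf itself fell (-0.70 ± 0.10 and -0.52 ± 0.09; edgeR adjusted p 2.63e-07 and 1.27e-05). Abra, an actin-binding activator of this pathway, rose (0.47 ± 0.12; edgeR adjusted p = 0.000826). None of these lists had a gene called at 1 mg/kg/day by edgeR.

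Markers of muscle in which Actc1 is known to be high were read beside it. Of 7 cardiac muscle markers only Myh6 had enough counts to test, and it did not pass (4.54 ± 3.35 CPM at 10 mg/kg/day and 2.50 ± 2.10 CPM at 0 mg/kg/day; edgeR adjusted p = 0.102). Myh6 did pass at 10 against 1 mg/kg/day (log2 fold change 1.42) and at 10 against 0 mg/kg/day in hCYP2B6-Tg males (2.36), both higher at 10 mg/kg/day. The summed level of the 7 ranged from 1.55 to 11.3 CPM at 10 mg/kg/day and from 0.789 to 8.07 CPM at 0 mg/kg/day, and Nppa, Nppb and Myl7, defining genes of the atria and ventricles, had at most 2, 2 and 3 counts in any library. Of 12 genes of immature or regenerating muscle, 9 were tested, of which 2 rose and 1 fell, where 47.5% of all genes passed. Cdkn1a, a cell cycle inhibitor, rose (1.47 ± 0.19; edgeR adjusted p = 3.82e-08), as did embryonic myosin Myh3 (0.91 ± 0.35; edgeR adjusted p = 0.0286), whereas neonatal myosin Myh8 fell (-0.46 ± 0.10; edgeR adjusted p = 0.00035; log2 fold changes with SE).

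Markers of other cell types were read in the same contrast, in which 24.98% of all genes were higher and 22.5% lower. Of 12 adipocyte markers, 9 rose and 0 fell at 10 mg/kg/day (median log2 fold change 1.87), and their summed level ranged from 687 through a median of 1846 to 3968 CPM at 10 mg/kg/day and from 651 through a median of 1041 to 2146 CPM at 0 mg/kg/day. The secreted adipocyte proteins Retn and Cfd rose by 3.14 ± 0.53 and 3.14 ± 0.55 on the log2 scale (SE; edgeR adjusted p 4.89e-06 and 1.00e-05). With the mean of the adipocyte markers in the fit, the log2 fold change was -0.86 for Acta1, -3.42 for Actc1, -0.67 for Tpm1, -0.82 for Tpm2, 0.67 for Actn3 and 0.75 for Nrap, and averaged over strata the same 6 genes passed. Of 11 fast fibre markers, 7 fell and 1 rose, and their summed level ranged from 83710.0 through a median of 118600.0 to 150300.0 CPM at 10 mg/kg/day and from 128600.0 through a median of 153100.0 to 185600.0 CPM at 0 mg/kg/day. Casq1, the fast calsequestrin, and Myl1, a fast myosin light chain, fell by 1.54 ± 0.14 and 1.60 ± 0.15 on the log2 scale (SE; edgeR adjusted p 1.37e-11 and 2.23e-11). Of 8 fibroblast markers 4 fell and 2 rose, with the collagen Col3a1 at -2.32 ± 0.21 and the proteoglycan Dcn at 0.74 ± 0.17 (log2, SE; edgeR adjusted p 8.92e-12 and 0.000403). The part of fast fibre and fibroblast content in the differences of the 10 genes was not tested. Without the 6 libraries in which liver or lymph node transcripts stood apart, the log2 fold change was -0.88 for Acta1, -3.86 for Actc1, -0.90 for Tpm1, -0.58 for Tpm2, 0.57 for Actn3 and 0.88 for Nrap, and the same 6 genes passed.

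Because the actins are close relatives, shared reads could move counts between them. The coding sequences of Acta1 and Actc1 were identical at 977 of 1134 bases (86.2%), those of Acta1 and Acta2 at 85.4% and those of Actc1 and Acta2 at 82.5%. No window of 100 bases of the transcripts of Acta1, Actc1 or Acta2 occurred in another gene's transcript. The sources used here give neither the read length nor the treatment of reads with several matches. The gene that overlaps Actc1 on the other strand held 14 counts over all libraries, against 337524 for Actc1.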

How the data were processed

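RNA-seq libraries of snap-frozen gastrocnemius, 1 per mouse, were used as the table of counts per gene that the authors deposited, with no normalisation. HISAT2 and GRCm39 are named, without version or role, per the submitters' processing notes; the table's coordinates of 8 of the 10 genes match GRCm38. The sources used here give neither the counting program nor the use of strand.

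Counts were scaled by TMM and fitted over 12 groups of dose, genotype and sex in edgeR 4.0.16 (R 4.3.3) after its filter on low counts, which left 15583 genes, with 36 residual degrees of freedom. Contrasts were tested by quasi-likelihood with Benjamini-Hochberg adjustment over all genes and a threshold of 0.05. CPM per kb used the table's gene length. Alternatives used limma 3.58.1 and DESeq2 1.42.0. Permutations, sequences and plots used Python 3.11.15, numpy 2.4.6, scipy 1.17.1, pandas 2.3.3 and matplotlib 3.10.9. The edgeR fit was checked on simulated counts with known changes.

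The 10 genes and the lists were chosen with earlier results of these data known. Besides the 10, up to 4 genes per list with the smallest p at 10 against 0 mg/kg/day were named, and the 3 to 5 genes with the most similar pattern; Actb, Myh6, Myh4, Nppa, Nppb, Myl7 and Tpm3-rs7 were named after their values were seen.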

Additional observations from a re-analysis of the deposited data

Results flagged for a closer look

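Within groups of 4 or 5 libraries, 110 groups were examined for a library far from the others by Dixon's criterion, which chance meets in about 1 of 20 groups, and 5 libraries met it. Acta2 was high in replicate 1 of the hCYP2B6-Tg males given 1 mg/kg/day (48.9 CPM, the others 15.9 to 17.1 CPM), in replicate 5 of the vehicle hCYP2B6-Tg males (43.3 CPM, the others 14.4 to 19.6 CPM) and in replicate 1 of the vehicle Cyp2b-null males (63.4 CPM, the others 17.1 to 21.3 CPM). Tpm2 was low in replicate 1 of the hCYP2B6-Tg females given 1 mg/kg/day (2034 CPM, the others 4541 to 4980.1 CPM) and in replicate 3 of the vehicle hCYP2B6-Tg males (2457 CPM, the others 3504 to 3881 CPM). None of the 5 was among the 6 libraries with liver or lymph node transcripts.

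Actn2 lay on opposite sides of vehicle in males of the hCYP2B6-Tg and Cyp2b-null lines, although it passed in neither stratum and the dose groups overlapped in both. Every hCYP2B6-Tg male at 10 mg/kg/day was above the mean of its vehicle group, by 0.956 on average on the log2 CPM scale, and every Cyp2b-null male was below the mean of its own, by -0.293 on average, a difference of 1.25. It was 1 of 40 pairs of strata compared in this way, and the difference within males was not tested.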

How the results depend on the processing

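No result changed direction while passing. Between 10 and 0 mg/kg/day averaged over strata, 6 of the 10 genes were called under all 11 alternatives and in all 32 fits that left out a library, with log2 fold changes of -1.02 to -0.81 for Acta1, -4.14 to -3.42 for Actc1, -1.05 to -0.67 for Tpm1, -0.82 to -0.52 for Tpm2, 0.48 to 0.72 for Actn3 and 0.75 to 1.15 for Nrap. Over all genes, 7403 were called, 3892 of them higher; library totals without scaling factors gave 9166, 7519 higher, with the median of all genes at 0.25 instead of 0.04, and library sizes without mitochondrial and the 20 most abundant genes gave 7862, 5263 higher, with a median of 0.12. On unscaled totals Neb was 0.11 against 0 and 0.22 against 1 mg/kg/day. With adipocyte markers as a covariate 5261 genes were called, and Acta2, Tpm3 and Actn2 took the opposite sign without passing (-0.41, -0.33 and -0.16). Counts of the 10 genes that moved were, for Cyp2b-null females at 10 against 0 mg/kg/day, 1 in the fit of the compared groups alone and 3 without the 6 libraries; for hCYP2B6-Tg males, 2 with the adipocyte covariate and 3 to 7 leaving out 1 library; for Cyp2b-null males, 3 to 5 leaving out 1 library; for the difference between the sexes, 1 in limma voom; and for females against males at 0 mg/kg/day, where 1 was called, 2 in DESeq2, 2 with the adipocyte covariate, 3 in the fit of the compared groups alone, 2 on unscaled totals, 5 in limma voom, 0 with no filter on low counts and 0 to 2 leaving out 1 library. Calls over all genes differed between methods as well, as given above for the sexes at 0 mg/kg/day. A moved count of the 10 genes therefore cannot be told apart from a change in calls over all genes. Of 770 recomputed fold changes, 755 were counted as unchanged, although 27 of these took the opposite sign. For 10 against 0 and 10 against 1 mg/kg/day, being unchanged meant a move smaller than the gene's within-group SD. For the other contrasts it meant the same side of the threshold, which 72 of 90 correlations also kept. The cause of these shifts was not tested. Replicate numbers were not treated as pairs in the main fit. Over 31 same-numbered pairs the correlation of deviations was -0.386 to 0.415 and over 0.1 in 10. Libraries with different numbers were not compared, so these values cannot show whether the numbers pair the libraries. With the replicate block 6 of the 10 genes and 7369 of all genes were called. Acta2 had the fewest counts of the 10 over all libraries (23475); how far depth limits it was not tested.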
